A study of Homo sapiens with 30 samples.

Results

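SLAM family receptors and their adaptor SAP were followed through activation of Jurkat E6-1, a leukaemia line of human T cells. The set was defined by gene name and holds 8 genes of the 54300 symbols in the count files: the receptors SLAMF6, SLAMF7, SLAMF1, LY9, CD84 and CD244, the ligand CD48, and SH2D1A, which encodes SAP. All 8 were among the 21554 symbols that passed the filter on low counts. Cells were KO for SLAMF6 isoform 1 or WT, and both were activated with PMA, a phorbol ester that activates protein kinase C, and ionomycin, a calcium ionophore. KO groups were taken at 0, 6, 12, 24 and 36 h and WT groups at the same times, with 0 h unstimulated and 3 libraries in each of the 10 groups. The protocol in the labels writes the edited cells as SLAMF6∆17-65 and does not say whether they are a single clone. The name of the series points to an overexpressed isoform 3 instead, and nothing in the counts per gene decides between these descriptions. No label says that the libraries of a group came from separate cultures, so p-values measure the spread between these libraries, which may be technical.

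SLAM receptors are cell surface proteins of the immunoglobulin superfamily on lymphocytes and other blood cells. SLAMF6, SLAMF7, SLAMF1, LY9 and CD84 each bind the same receptor on a neighbouring cell, while CD244 binds CD48, which is held in the membrane by a lipid anchor and has no signalling tail. Tyrosine motifs in the tails of most of these receptors recruit SAP, a small SH2 domain protein that brings in the kinase FYN, and can otherwise recruit phosphatases such as SHP-1. Inherited loss of SAP causes X-linked lymphoproliferative disease.

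The 7 receptor and ligand genes lie side by side on chromosome 1, in the order SLAMF6, CD84, SLAMF1, CD48, SLAMF7, LY9 and CD244, and SH2D1A lies on chromosome X. In GENCODE 29 on GRCh38, SLAMF6 (ENSG00000162739) spans chr1:160485030-160523262 on the minus strand and CD244 (ENSG00000122223), at the other end, chr1:160830160-160862855 on the minus strand. SH2D1A (ENSG00000183918) spans chrX:124227868-124373197 on the plus strand. The counts were made on another build, GRCh37. CD84 and CD48 each overlap an antisense gene on the opposite strand, and the span of SH2D1A overlaps STAG2 on the same strand, so reads of these pairs could be mixed where the counting did not use strand or exons. The stretch that codes for residues 17 to 65, which the labels name, is shown first because it is what sets KO cells apart from WT cells by their labels. It was read from the coding sequence of transcript SLAMF6-202, which has 332 codons, with the 147 bases of the 49 residues in capitals and 30 bases on either side in lower case.
SLAMF6, residues 17 to 65: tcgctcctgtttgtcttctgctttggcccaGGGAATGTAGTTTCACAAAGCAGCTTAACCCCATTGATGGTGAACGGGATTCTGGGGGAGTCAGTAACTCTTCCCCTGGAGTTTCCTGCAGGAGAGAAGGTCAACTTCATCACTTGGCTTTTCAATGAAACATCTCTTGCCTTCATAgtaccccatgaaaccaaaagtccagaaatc
Of these 147 bases, 146 lie in exon 2, at chr1:160496248-160496393 on the minus strand of GRCh38. Another transcript of SLAMF6, with 331 codons, holds the same stretch, and SLAMF6-201, with 221 codons, does not. Counts per gene sum the transcripts, so the level of SLAMF6 checks neither the deletion nor its absence.

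RefSeq promoter windows on GRCh38.p14, of 250 bases before and 50 after a start of the gene, were at hand for 5 of the 8 genes: SLAMF6, SLAMF1, CD244, CD48 and SH2D1A. This start need not be the end of the GENCODE span given above. Those of SLAMF6 and CD48 are shown because these genes rose most alike over the 10 groups, and that of CD244 because its time course differed from theirs. Capitals mark GGAAA, a core bound by NFAT, and TGANTCA, the AP-1 site, each searched on both strands, where the first reads TTTCC on the minus strand. NFAT and AP-1 are the factors that calcium and protein kinase C signals act on in T cells.
SLAMF6, chr1:160523206-160523505, minus strand: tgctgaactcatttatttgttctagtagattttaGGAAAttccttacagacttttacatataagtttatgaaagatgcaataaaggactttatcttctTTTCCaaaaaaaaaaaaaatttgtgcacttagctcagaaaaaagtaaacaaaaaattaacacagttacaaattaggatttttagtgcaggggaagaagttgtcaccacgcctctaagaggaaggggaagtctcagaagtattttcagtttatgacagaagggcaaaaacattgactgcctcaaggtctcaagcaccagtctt
CD48, chr1:160711773-160712072, minus strand: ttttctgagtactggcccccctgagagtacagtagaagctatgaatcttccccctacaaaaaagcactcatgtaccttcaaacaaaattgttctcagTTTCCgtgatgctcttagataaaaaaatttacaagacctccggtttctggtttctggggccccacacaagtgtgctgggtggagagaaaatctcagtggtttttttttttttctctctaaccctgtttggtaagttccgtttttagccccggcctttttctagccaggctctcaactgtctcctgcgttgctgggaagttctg
CD244, chr1:160862838-160863137, minus strand: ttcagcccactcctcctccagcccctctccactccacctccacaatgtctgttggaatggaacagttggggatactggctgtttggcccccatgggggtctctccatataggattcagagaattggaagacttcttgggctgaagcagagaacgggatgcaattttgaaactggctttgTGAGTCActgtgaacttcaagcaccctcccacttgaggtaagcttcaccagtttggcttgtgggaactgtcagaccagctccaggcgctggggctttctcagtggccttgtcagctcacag
GGAAA was found 2 times in the window of SLAMF6, 2 times in that of SLAMF1 and 1 time in that of CD48, and of all 35116 windows 61.2% hold it. TGANTCA was found 1 time in that of CD244, starting at base -71 from the start used for its window, and 7.71% of all windows hold it. The window of SH2D1A, at chrX:124346313-124346612, held neither. It lies inside the GENCODE span of the gene, and the sequence at the first base of that span was not searched. The NF-kB consensus was in none of these 5 windows and in 5.91% of all windows. These are matches of letters and were not tested for binding.

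Libraries held 5.64 to 28.2 M counts with a median of 20.5 M, and 3 were under 10 M: KO 0 h replicate 2, WT 0 h replicate 2 and WT 36 h replicate 2. Levels are counts per M (CPM) on TMM-scaled library sizes. All 9 T cell markers were present, with summed levels of 3895 to 5923 CPM over the groups. Of 8 NK cell markers, 5 were under 1 CPM in every group, NCR1, KLRF1, FCGR3A, TYROBP and NCR2, and the sum ran from 3.36 to 15.6 CPM. KLRD1, the NK marker that varied most, was at 0.209 and 12.3 CPM in KO cells at 0 and 36 h and at 0.114 and 7.34 CPM in WT cells. Of the 6 monocyte and macrophage markers, CD14, LYZ, FCGR1A and S100A8 were under 1 CPM in every group, CSF1R reached 2.16 CPM and CD68 reached 34.3 CPM. Among B cell markers, CD79A ran up to 31.2 CPM and BLK up to 23.4 CPM, while MS4A1 was under 1 CPM in every group. In the titles, libraries of 0 to 24 h carry the letter B in KO and A in WT, and all 36 h libraries carry C. The labels do not say what the letters mark, so letter and genotype cannot be told apart at 0 to 24 h, and the 36 h comparison of KO with WT is the one made within a letter.

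At rest, SAP was the most abundant transcript of the set and SLAMF7 and SLAMF1 were the scarcest. Per kb of exon, levels at 0 h in KO cells were 78.8 CPM per kb for SH2D1A, 12.4 for CD84, 11.6 for CD48, 10 for CD244, 7.02 for SLAMF6, 0.895 for LY9, 0.5 for SLAMF7 and 0.139 for SLAMF1. In WT cells at 0 h they were 82.1 CPM per kb for SH2D1A, 12.8 for CD84, 8.64 for CD48, 7.71 for SLAMF6, 5.95 for CD244, 2.14 for LY9, 0.236 for SLAMF1 and 0.177 for SLAMF7. By 36 h CD48 led in both genotypes, at 133 CPM per kb in KO cells and 95.2 in WT cells. SLAMF6 was next, at 50.6 CPM per kb in KO cells and 38.3 in WT cells. SAP stood at 16.7 CPM per kb in KO cells at 36 h and 36.6 in WT cells. Exon lengths are unions over all transcripts of a gene, and the isoforms in use were not measured.

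**Figure D1:**
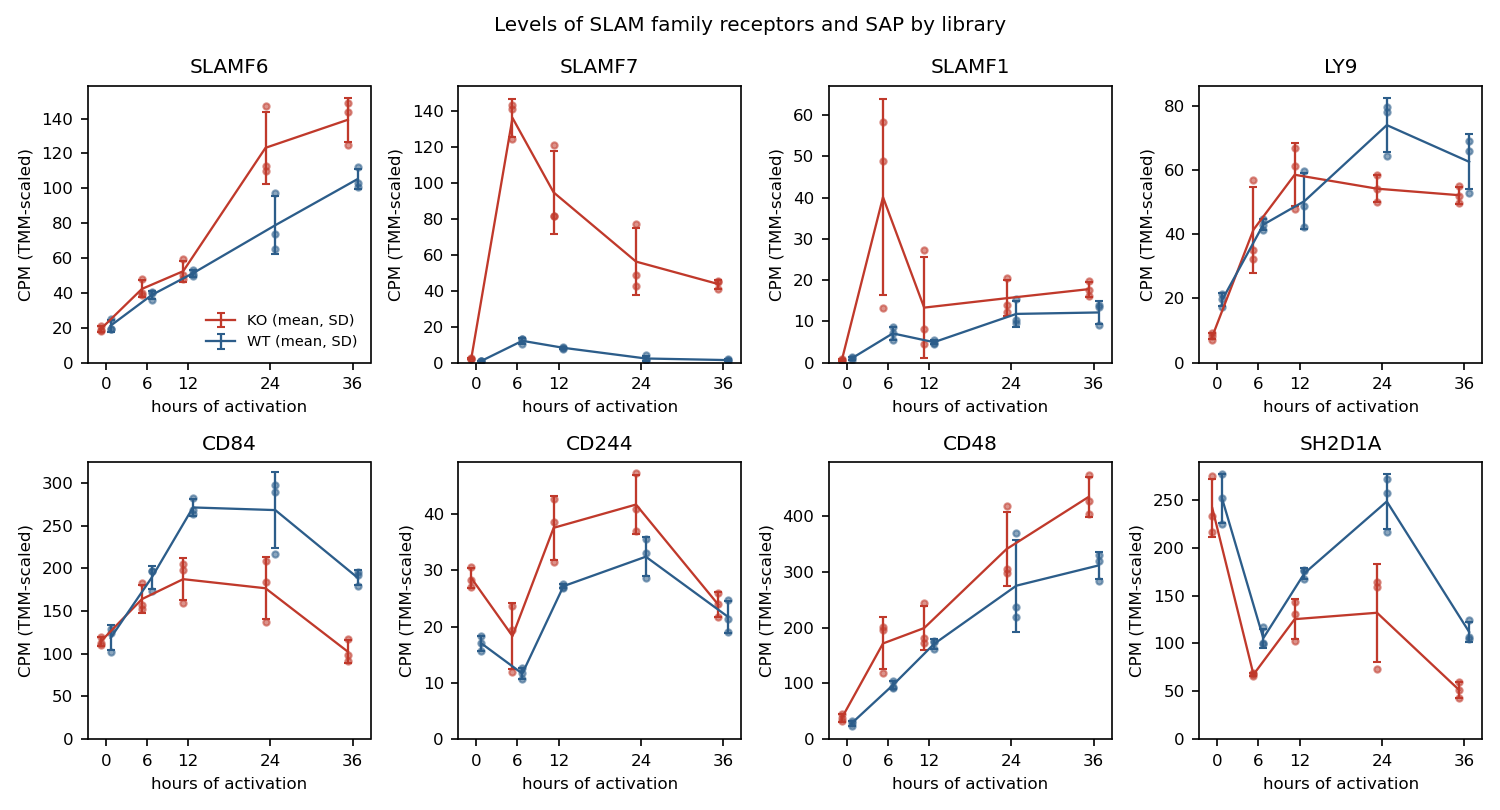
Levels of the 8 genes in CPM (TMM-scaled) against hours of activation, with each library as a point and the mean and SD of 3 libraries as a line with error bars, KO in red and WT in blue. SLAMF7 in KO cells stands above every WT library at all 5 times, and SH2D1A falls at 6 h in both genotypes.

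Activation changed most of the set in both genotypes. Against 0 h, 6 of 8 genes were called higher in KO cells at 6 h, 6 at 12 h, 7 at 24 h and 5 at 36 h, and 2, 1, 1 and 1 were called lower. A call is an adjusted p under 0.05. Over all genes tested in KO cells, 14.0%, 14.1%, 16.1% and 18.6% were called higher at 6, 12, 24 and 36 h and 13.1%, 13.8%, 16.6% and 18.0% lower. In WT cells 6, 7, 7 and 5 of the 8 were called higher at 6, 12, 24 and 36 h, and 2, 1, 0 and 1 lower. Over all genes in WT cells, 11.8%, 14.7%, 17.2% and 20.1% were called higher at 6, 12, 24 and 36 h and 10.6%, 15.6%, 17.0% and 19.0% lower. The share of the set called higher thus stood above the share of all genes at each later time in each genotype. The members were chosen with earlier results of these data known, so this describes the set and is no test of it. The median log2 change of the 8 genes was 1.65, 1.92, 2.71 and 2.77 in KO cells at 6, 12, 24 and 36 h, with 0.03, 0.05, 0.05 and 0.04 over all genes tested. In WT cells it was 1.02, 1.34, 1.69 and 1.26, with 0.03, 0.12, 0.03 and 0.01 over all genes tested. The 4 comparisons of a genotype share its 0 h libraries, and 36 h libraries differ in title letter from those of 0 h. In a culture, more expressing cells and more RNA per cell cannot be told apart.

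**Figure D2:**
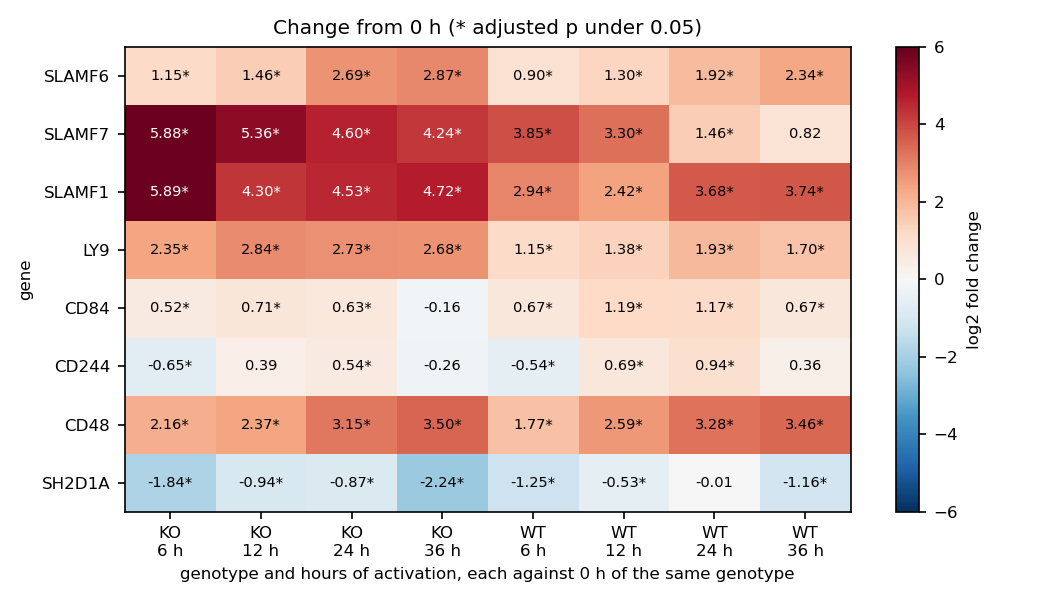
Log2 fold change of each gene against 0 h of the same genotype, KO columns before WT columns, in red where higher and blue where lower, with an asterisk at an adjusted p under 0.05. SLAMF6, SLAMF1, LY9 and CD48 are called higher in all 8 columns, and SH2D1A is the gene called lower in 7 of them.

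KO and WT cells differed in some of the set at every time. In KO against WT, 2 members were called higher and 1 lower at 0 h, 4 and 1 at 6 h, 1 and 1 at 12 h, 2 and 2 at 24 h, and 2 and 2 at 36 h. Over all genes tested, 2.97% were called higher and 3.09% lower at 0 h, 5.20% and 4.73% at 6 h, 5.92% and 5.45% at 12 h, 4.87% and 4.69% at 24 h, and 6.96% and 6.52% at 36 h. The median log2 difference of the 8 genes was -0.06, 0.39, 0.22, 0.34 and 0.27 at 0, 6, 12, 24 and 36 h, and over all genes it lay between -0.01 and -0.00. The change from 0 h itself differed between KO and WT cells in 2, 2, 3 and 4 of the 8 genes at 6, 12, 24 and 36 h, where 3.09%, 2.04%, 3.68% and 9.33% of all genes were called. Tested jointly over the 4 later times, it differed in 4 of 8, SLAMF6, SLAMF7, LY9 and CD84 (adjusted p = 0.0222, 0.000457, 0.000536 and 0.00874), and in 9.77% of all genes. For SH2D1A, SLAMF1, CD244 and CD48 the joint adjusted p was 0.0574, 0.125, 0.268 and 0.499. The joint call of SLAMF6 was lost without KO 24 h replicate 3 or WT 24 h replicate 1 or 2 (adjusted p = 0.0628, 0.0704 and 0.0608). That of SH2D1A was gained without KO 12 h replicate 1, KO 24 h replicate 1, 2 or 3, or KO 36 h replicate 3 (adjusted p = 0.0339, 0.0222, 0.0344, 0.000323 and 0.0478), and that of SLAMF1 without KO 6 h replicate 2 or KO 12 h replicate 1 (adjusted p = 0.021 and 0.0172). With DESeq2 both were called (adjusted p = 0.00743 and 0.0128), as was SH2D1A without the filter on low counts (adjusted p = 4.82e-07). Without the 3 libraries under 10 M counts the joint call of SLAMF6 was lost (adjusted p = 0.0699). So were, without them, the KO against WT calls of SLAMF7 at 0 h and SLAMF6 at 36 h (1.44 and 0.39, adjusted p = 0.105 and 0.0806). Replicate 3 of 24 h stood at the edge of its group in both genotypes for all 8 genes, highest for SLAMF6, SLAMF7, SLAMF1 and CD48 and lowest for LY9, CD84, CD244 and SH2D1A.

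**Figure D3:**
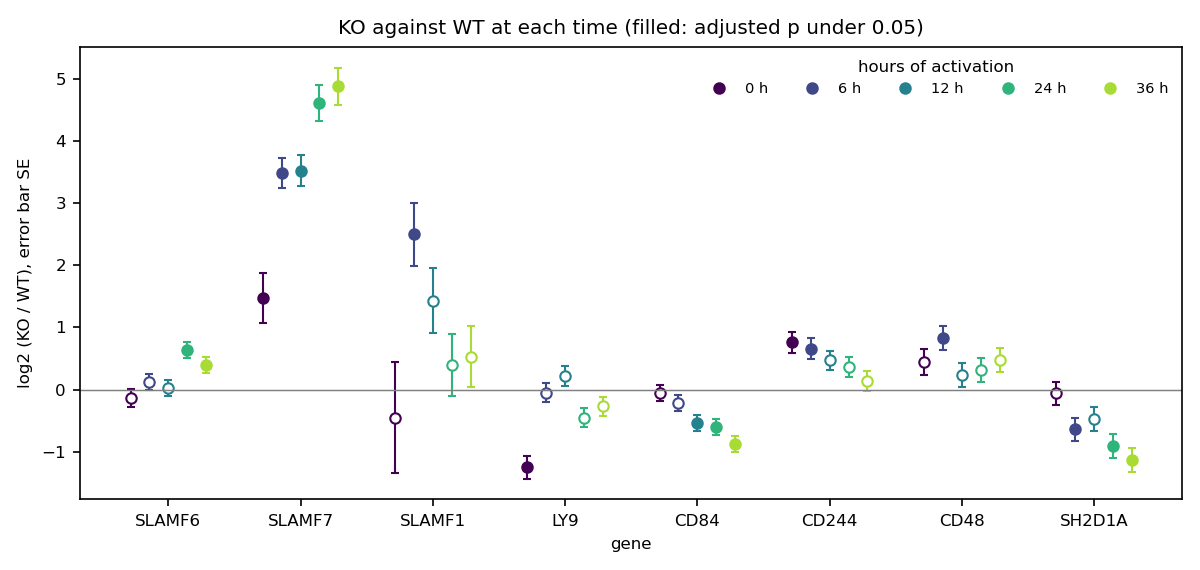
Log2 difference of KO over WT for each gene at the 5 times, with the SE as error bar, a filled point at an adjusted p under 0.05 and an open point otherwise. SLAMF7 is filled at all 5 times, and CD84 is filled and below 0 at 12, 24 and 36 h.

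SLAMF7, a receptor best known from NK cells and plasma cells, differed most between KO and WT cells within the set. At 0 h SLAMF7 was at 2.25, 2.82 and 2.18 CPM in the KO libraries, against 0.971, 0.939 and 0.66 CPM in the WT libraries. The 6 libraries held 7 to 58 counts each for the gene. At 6 h SLAMF7 was at 141, 124 and 143 CPM in the KO libraries, against 13, 10.3 and 13 CPM in the WT libraries. At 12 h SLAMF7 was at 121, 81.3 and 81.4 CPM in the KO libraries, against 7.68, 8.27 and 8.67 CPM in the WT libraries. At 24 h SLAMF7 was at 42.6, 48.5 and 77.3 CPM in the KO libraries, against 1.3, 1.4 and 4.13 CPM in the WT libraries. The levels of the KO libraries were several times those of any WT library at these 3 times. At 36 h SLAMF7 was at 45.3, 40.8 and 44.8 CPM in the KO libraries, against 1.86, 0.861 and 1.41 CPM in the WT libraries. No KO library overlapped a WT library at any time. The log2 difference was 1.47 (SE 0.4, adjusted p = 0.0261) at 0 h, a call that was lost when KO replicate 1, 2 or 3 or WT replicate 1 or 3 of 0 h was left out (adjusted p = 0.0792, 0.0626, 0.0799, 0.0705 and 0.121). It was 3.49 (SE 0.24, adjusted p = 3.97e-11) at 6 h, 3.52 (SE 0.247, adjusted p = 7.88e-11) at 12 h, 4.61 (SE 0.285, adjusted p = 7.64e-12) at 24 h and 4.88 (SE 0.299, adjusted p = 4.54e-12) at 36 h, or 11.2-, 11.5-, 24.4- and 29.4-fold higher in KO cells. The 36 h value is within title letter C. The WT libraries held few counts of SLAMF7 late, 22, 18 and 65 at 24 h and 41, 8 and 30 at 36 h. From 6 to 36 h its mean level fell from 136 to 43.6 CPM in KO cells and from 12.1 to 1.38 CPM in WT cells.

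In both genotypes the mean level of SLAMF7 was highest at 6 h and lower at each time after. The 6 to 12 h step was not called in KO or WT cells (-0.52 and -0.56, adjusted p = 0.129 and 0.157). Nor was the 24 to 36 h step (-0.36 and -0.64, adjusted p = 0.369 and 0.38). The log2 change from 0 h was 5.88, 5.36, 4.60 and 4.24 at 6, 12, 24 and 36 h in KO cells, all called, and 3.85, 3.30, 1.46 and 0.82 in WT cells, called at 6, 12 and 24 h. The 24 h call in WT cells rested on WT 24 h replicate 3, at 4.13 CPM, and was lost without it (log2 0.69, adjusted p = 0.178). From 12 to 24 h SLAMF7 fell by 1.84 on the log2 scale in WT cells (adjusted p = 6.34e-05). The 36 h value in WT cells was called without that library of 24 h (0.85, adjusted p = 0.0341), and libraries of WT cells at 36 and 0 h overlapped. The change from 0 h was larger in KO cells than in WT cells by 2.02, 2.06, 3.14 and 3.41 log2 units at 6, 12, 24 and 36 h (adjusted p = 0.0187, 0.0225, 0.000543 and 0.000151). The 6 h and 12 h values lost their call without KO 0 h replicate 1 (2.02 and 2.07, adjusted p = 0.0514 and 0.0548) or WT 0 h replicate 1 (1.85 and 1.90, adjusted p = 0.144 and 0.149), and the 12 h value also without KO 0 h replicate 3 (2.04, adjusted p = 0.0552). Both were lost without the 3 libraries under 10 M counts (2.05 and 2.10, adjusted p = 0.0656 and 0.0732). CD68, a lysosomal protein used as a macrophage marker, had the time course most like that of SLAMF7 (r = 0.981 over the 10 group means). It was at 7.56, 27, 34.3, 19.1 and 18.2 CPM in KO cells at 0, 6, 12, 24 and 36 h, against 5.34, 13.4, 9.85, 8.06 and 6.21 CPM in WT cells. CD68 made up most of the summed monocyte and macrophage list, which averaged 23 CPM in KO groups and 10.6 CPM in WT groups, while the defining markers CD14, LYZ, FCGR1A and S100A8 were under 1 CPM in all groups.

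SLAMF6, the edited gene, rose through activation in both genotypes and was higher in KO cells late. At 0 h SLAMF6 was at 18.2, 21 and 18.6 CPM in the KO libraries, against 19, 25.1 and 19.4 CPM in the WT libraries. At 6 h SLAMF6 was at 38.8, 40.2 and 47.9 CPM in the KO libraries, against 40.4, 39.9 and 36.1 CPM in the WT libraries. At 12 h SLAMF6 was at 50, 59.3 and 48 CPM in the KO libraries, against 53.3, 51 and 49.5 CPM in the WT libraries. The groups overlapped at these 3 times. At 24 h SLAMF6 was at 109.7, 113 and 147 CPM in the KO libraries, against 65.2, 73.9 and 97.4 CPM in the WT libraries. At 36 h SLAMF6 was at 144, 125 and 149 CPM in the KO libraries, against 101, 103 and 112 CPM in the WT libraries. At 24 and 36 h every KO library was above every WT library. The log2 difference was -0.13, 0.12 and 0.03 at 0, 6 and 12 h (SE 0.141, 0.13 and 0.129, none called). It was 0.64 (SE 0.128, adjusted p = 0.000607) at 24 h. At 36 h it was 0.40 (SE 0.127, adjusted p = 0.0269), and this call was lost without KO replicate 1 or 3 or WT replicate 1 or 2 of 36 h (0.35 to 0.39, adjusted p = 0.0885, 0.125, 0.0985 and 0.0928). The rise from 0 to 24 h was larger in KO cells by 0.77 (SE 0.19, adjusted p = 0.015), which was lost without KO 24 h replicate 3 or WT 24 h replicate 1 (0.65 and 0.65, adjusted p = 0.0616 and 0.0629) or the 3 libraries under 10 M counts (0.70, adjusted p = 0.0673). The level rose from 12 to 24 h in KO cells, with a log2 change of 1.23 (adjusted p = 1.96e-09), and the 24 to 36 h value was 0.17 (adjusted p = 0.479). In WT cells it rose from 12 to 24 h by 0.62 log2 units (adjusted p = 0.000596).

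SLAMF1, the founding member of the family and a receptor for measles virus, was nearly silent at rest and rose in both genotypes. At 0 h SLAMF1 was at 0.638, 0.352 and 0.789 CPM in the KO libraries, against 1.17, 1.34 and 0.513 CPM in the WT libraries. The libraries held 2 to 30 counts each. At 6 h SLAMF1 was at 58.2, 13.2 and 48.9 CPM in the KO libraries, against 8.56, 5.53 and 7.13 CPM in the WT libraries. At 12 h SLAMF1 was at 27.3, 4.62 and 8.04 CPM in the KO libraries, against 4.57, 4.81 and 5.45 CPM in the WT libraries. At these times the KO libraries spread 4.41-fold and 5.92-fold between lowest and highest, and the WT libraries 1.55-fold and 1.19-fold. At 24 h SLAMF1 was at 12.2, 14 and 20.6 CPM in the KO libraries, against 10.4, 9.59 and 15.4 CPM in the WT libraries. At 36 h SLAMF1 was at 19.7, 17.6 and 16.1 CPM in the KO libraries, against 13.5, 9.04 and 13.9 CPM in the WT libraries. The groups overlapped at 12 and 24 h and not at 6 and 36 h. KO exceeded WT at 6 h by 2.50 (SE 0.509, adjusted p = 0.00233) on the log2 scale, and in a fit of the 6 libraries of that time alone the adjusted p was 0.0622. The differences at 12, 24 and 36 h were 1.43, 0.40 and 0.53 (SE 0.527, 0.497 and 0.492) and were not called. A fit of the 6 libraries of 36 h alone called the 36 h value (0.50, adjusted p = 0.031). At 12 h the value without KO 12 h replicate 2 was 1.86 (adjusted p = 0.0259). The log2 change from 0 h was 5.89, 4.30, 4.53 and 4.72 in KO cells at 6, 12, 24 and 36 h and 2.94, 2.42, 3.68 and 3.74 in WT cells, all called. The 12 h call in WT cells was lost without WT 0 h replicate 3 (2.00, adjusted p = 0.0795). KO and WT changes differed by 2.95, 1.88, 0.85 and 0.97 at 6, 12, 24 and 36 h, none called (adjusted p = 0.141, 0.479, 0.777 and 0.637). The 6 h difference of changes was called with DESeq2 (3.13, adjusted p = 0.0037). It was also called without KO 6 h replicate 2 or KO 12 h replicate 1 (3.37 and 2.95, adjusted p = 0.0406 and 0.0371).

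LY9, also called CD229, started lower in KO cells and was near the WT level at 6 and 12 h. At 0 h LY9 was at 7.14, 8.28 and 9.06 CPM in the KO libraries, against 19.9, 21.3 and 17.3 CPM in the WT libraries. Every KO library was below every WT library, and the log2 difference was -1.25 (SE 0.179, adjusted p = 1.06e-05), or 0.421 times the WT level. At 6 h LY9 was at 35.2, 56.8 and 32.2 CPM in the KO libraries, against 42.7, 44.8 and 41.4 CPM in the WT libraries. At 12 h LY9 was at 47.7, 61.1 and 66.7 CPM in the KO libraries, against 48.8, 42.3 and 59.8 CPM in the WT libraries. The groups overlapped at 6 and 12 h. At 24 h LY9 was at 54.2, 58.4 and 49.9 CPM in the KO libraries, against 77.9, 79.7 and 64.3 CPM in the WT libraries. At 36 h LY9 was at 49.7, 51.8 and 54.9 CPM in the KO libraries, against 68.9, 52.8 and 65.9 CPM in the WT libraries. At 24 h every KO library was again below every WT library. The difference was -0.05, 0.22, -0.45 and -0.27 at 6, 12, 24 and 36 h (adjusted p = 0.904, 0.404, 0.0612 and 0.294), none called. The 24 h value was called with DESeq2 (-0.47, adjusted p = 0.0317) and without WT 24 h replicate 3 (-0.52, adjusted p = 0.0441). It was also called with DESeq2 size factors (-0.47, adjusted p = 0.043) and without the filter on low counts (-0.43, adjusted p = 0.0427). A replicate block called it too (-0.45, adjusted p = 0.0167). In a fit of the 6 libraries of 36 h alone the 36 h value was called (-0.30, adjusted p = 0.037). The log2 rise from 0 h was 2.35, 2.84, 2.73 and 2.68 in KO cells at 6, 12, 24 and 36 h, against 1.15, 1.38, 1.93 and 1.70 in WT cells. It was larger in KO cells by 1.20, 1.47, 0.80 and 0.98 (adjusted p = 0.00227, 0.00015, 0.0487 and 0.00602). All 4 of these differences rest on the same 0 h libraries. The 24 h difference lay close to the threshold and was lost without most single libraries, for example KO 24 h replicate 2 (0.74, adjusted p = 0.104). Some of these were of times not compared, such as WT 6 h replicate 1 (0.80, adjusted p = 0.0607). Without the 3 libraries under 10 M counts the 24 and 36 h differences were both lost (0.75 and 0.83, adjusted p = 0.148 and 0.081).

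CD84, a receptor that binds itself and signals through SAP, was lower in KO cells from 12 h on. At 0 h CD84 was at 119.9, 110.3 and 113 CPM in the KO libraries, against 124, 102 and 129.5 CPM in the WT libraries. At 6 h CD84 was at 157, 152 and 183 CPM in the KO libraries, against 174, 197 and 197 CPM in the WT libraries. The groups overlapped at 0 and 6 h. At 12 h CD84 was at 159, 205 and 198 CPM in the KO libraries, against 268, 264 and 282 CPM in the WT libraries. At 24 h CD84 was at 209, 184 and 137 CPM in the KO libraries, against 289.7, 298 and 217 CPM in the WT libraries. At 36 h CD84 was at 91, 99 and 117 CPM in the KO libraries, against 192, 179 and 196 CPM in the WT libraries. From 12 h on every KO library was below every WT library. The log2 difference was -0.54 (SE 0.127, adjusted p = 0.00373) at 12 h, -0.60 (SE 0.127, adjusted p = 0.00128) at 24 h and -0.88 (SE 0.128, adjusted p = 4.23e-06) at 36 h, or 0.69, 0.66 and 0.542 times the WT level. In a fit of the 6 libraries of 24 h alone the adjusted p at that time was 0.074. The change from 0 to 36 h was -0.16 in KO cells (adjusted p = 0.363) and 0.67 in WT cells (adjusted p = 4.35e-05), and the difference between them was -0.83 (SE 0.181, adjusted p = 0.00239). From 24 to 36 h CD84 fell by 0.79 on the log2 scale in KO cells (adjusted p = 7.72e-05); in WT cells the change was -0.50 (adjusted p = 0.00993), a call lost without WT 24 h replicate 1 or 2 or WT 36 h replicate 2 (-0.46 to -0.42, adjusted p = 0.0589, 0.0786 and 0.0645).

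CD244, also called 2B4, is the receptor for CD48. It dipped at 6 h and rose by 24 h in both genotypes. At 0 h CD244 was at 28.2, 27 and 30.6 CPM in the KO libraries, against 17, 18.4 and 15.7 CPM in the WT libraries. At 6 h CD244 was at 11.9, 23.6 and 19.4 CPM in the KO libraries, against 12.6, 10.6 and 11.7 CPM in the WT libraries. At 6 h the lowest KO library was below the highest WT library. Means at 12, 24 and 36 h were 37.5 ± 5.69, 41.7 ± 5.25 and 23.9 ± 2.19 CPM in KO cells, against 27.2 ± 0.376, 32.4 ± 3.48 and 21.7 ± 2.85 CPM in WT cells (SD, n = 3 each). KO exceeded WT by 0.76 (SE 0.165, adjusted p = 0.00268) at 0 h and by 0.66 (SE 0.165, adjusted p = 0.00651) at 6 h. The 6 h call was lost without KO replicate 2 of 6 h (0.44, adjusted p = 0.112) and when the 6 libraries of 6 h were fitted by themselves (0.64, adjusted p = 0.0707). At 12 h the difference was 0.47 (SE 0.159, adjusted p = 0.0501), just past the threshold, and at 24 and 36 h it was 0.36 and 0.14 (SE 0.159 and 0.162). At 12 h the groups did not overlap, and the value was called in the fit without the filter on low counts (0.51, adjusted p = 0.0206). It was also called with a replicate block (0.46, adjusted p = 0.0415) and in a fit of the 6 libraries of 12 h (0.43, adjusted p = 0.048). Many fits without 1 library called it too, for example without KO 12 h replicate 3 (0.60, adjusted p = 0.0222). The change from 0 to 6 h was -0.65 in KO cells and -0.54 in WT cells, and from 0 to 24 h 0.54 and 0.94, all called. Single libraries carried 3 of these calls, which were lost without KO 6 h replicate 1 (-0.41, adjusted p = 0.0506), WT 6 h replicate 2 (-0.48, adjusted p = 0.0802) or KO 24 h replicate 1 (0.43, adjusted p = 0.064).

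CD48, the ligand of CD244, rose at every later time in both genotypes and reached the highest level of the set. Means at 0, 12, 24 and 36 h were 38 ± 6.77, 199 ± 39.3, 341 ± 66.8 and 435 ± 35.8 CPM in KO cells, against 28.3 ± 3.95, 171 ± 8.3, 275 ± 82.6 and 312 ± 24.8 CPM in WT cells (SD, n = 3 each). At 6 h CD48 was at 202, 118 and 195 CPM in the KO libraries, against 105, 92.1 and 93.1 CPM in the WT libraries. At 6 h every KO library was above every WT library, and the log2 difference was 0.83 (SE 0.195, adjusted p = 0.00613), or 1.78-fold. At 0, 12, 24 and 36 h the difference was 0.45, 0.23, 0.31 and 0.48 (SE 0.207, 0.193, 0.192 and 0.192), not called, and the 36 h groups did not overlap. The rise from 0 h was 2.16, 2.37, 3.15 and 3.50 log2 units in KO cells at 6, 12, 24 and 36 h, against 1.77, 2.59, 3.28 and 3.46 in WT cells. A fit of the 6 libraries of 36 h alone called the difference at that time (0.45, adjusted p = 0.000119), and the 24 h difference was called without WT 24 h replicate 3 (0.60, adjusted p = 0.0495).

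SH2D1A, the gene of SAP, was called lower than at rest in 7 of the 8 comparisons with 0 h, and lower in KO than in WT cells at 6, 24 and 36 h. At 0 h SH2D1A was at 216, 275 and 233 CPM in the KO libraries, against 252, 277 and 225 CPM in the WT libraries. At 6 h SH2D1A was at 65.7, 68 and 68.7 CPM in the KO libraries, against 99.4, 100.0 and 117 CPM in the WT libraries. Each genotype fell sharply within these first hours, and the resting groups overlapped. At 12 h SH2D1A was at 102, 131 and 143 CPM in the KO libraries, against 167, 177 and 176 CPM in the WT libraries. At 24 h SH2D1A was at 164, 159 and 73.1 CPM in the KO libraries, against 257, 272 and 216 CPM in the WT libraries. At 36 h SH2D1A was at 51.4, 42.6 and 59.3 CPM in the KO libraries, against 107, 105 and 124 CPM in the WT libraries. Every KO library was below every WT library from 6 h on, and KO 24 h replicate 3 was the lowest library of its group. The log2 difference was -0.64 (SE 0.192, adjusted p = 0.0322) at 6 h, -0.47 (SE 0.19, adjusted p = 0.115) at 12 h, -0.91 (SE 0.191, adjusted p = 0.00224) at 24 h and -1.13 (SE 0.195, adjusted p = 0.000207) at 36 h. KO cells thus held 0.456 times the WT level at 36 h, within title letter C. The 6 h call was lost when any 1 of the 6 libraries of that time was left out (log2 -0.68 to -0.56, adjusted p = 0.0632 to 0.142). The 12 h difference, not called here, was called with DESeq2 (-0.54, adjusted p = 0.0311) and without KO 24 h replicate 3 (-0.45, adjusted p = 0.00771). It was also called without the filter on low counts (-0.43, adjusted p = 0.011) and with a replicate block (-0.48, adjusted p = 0.0146). A fit of the 6 libraries of 12 h called it too (-0.51, adjusted p = 0.00662). In a fit of the 6 libraries of 24 h alone the adjusted p at that time was 0.0831.

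Against 0 h the log2 change of SH2D1A was -1.84, -0.94, -0.87 and -2.24 at 6, 12, 24 and 36 h in KO cells, all called, and the 24 h call was lost in a fit of its 6 libraries alone (-0.85, adjusted p = 0.0872). In WT cells it was -1.25, -0.53, -0.01 and -1.16, called at 6, 12 and 36 h, and the 24 h libraries overlapped those of 0 h. The 12 h call in WT cells was lost with DESeq2 size factors (-0.50, adjusted p = 0.0515) and with total counts (-0.45, adjusted p = 0.105). It was also lost without the 3 libraries under 10 M counts (-0.47, adjusted p = 0.126). Leaving out WT 0 h replicate 1 or 2 or any of the WT 12 h replicates lost it too (-0.57 to -0.50, adjusted p = 0.0574 to 0.0901). The level rose again from 6 to 12 h, by 0.90 log2 units in KO cells (adjusted p = 0.00237). In WT cells that change was 0.72 (adjusted p = 0.0175), a call lost without WT 6 h replicate 1 or 2 or WT 12 h replicate 2 or 3 (0.66 to 0.70, adjusted p = 0.0793, 0.0801, 0.0618 and 0.0535). From 24 to 36 h it fell by 1.37 on the log2 scale in KO cells (adjusted p = 6.34e-05) and fell by 1.15 in WT cells (adjusted p = 0.00042). The change from 0 h was more negative in KO cells by -1.07 (SE 0.271, adjusted p = 0.0126) at 36 h, and the values at 6, 12 and 24 h, -0.58, -0.41 and -0.85 (adjusted p = 0.301, 0.574 and 0.0789), were not called. The 36 h call was lost without the 3 libraries under 10 M counts (-1.09, adjusted p = 0.0657). At 24 h the difference was called with DESeq2 (-0.84, adjusted p = 0.0199) and without KO 24 h replicate 1 or 2 (-1.05 and -1.01, adjusted p = 0.028 and 0.0474), and at 6 h without KO 24 h replicate 3 (-0.56, adjusted p = 0.0443).

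Between neighbouring times, 4, 3 and 3 of the 8 genes were called in KO cells from 6 to 12, 12 to 24 and 24 to 36 h, where 10.9%, 14.5% and 7.34% of all genes were called. In WT cells 5, 4 and 4 were called, with 9.48%, 14.8% and 7.06% of all genes. From 6 to 12 h CD244 rose by 1.04 log2 units in KO cells and 1.23 in WT cells (adjusted p = 1.58e-05 and 1.67e-06). CD48 rose from 6 to 12 h in WT cells, by 0.82 (adjusted p = 0.00824). CD244 fell by 0.80 on the log2 scale from 24 to 36 h in KO cells (adjusted p = 0.00113). These calls held when each library was left out in turn, as did the steps called above for SLAMF6, SLAMF7, CD84 and SH2D1A with no library named. Every other called step was lost without at least 1 library of the times compared. In KO cells these were SLAMF1 and LY9 from 6 to 12 h, both lost without KO 6 h replicate 1 (-1.22 and 0.39, adjusted p = 0.208 and 0.201), and SLAMF7 and CD48 from 12 to 24 h, lost without KO 12 h replicate 1 and KO 12 h replicate 2 (-0.54 and 0.68, adjusted p = 0.114 and 0.0506). SLAMF7 was lost there also without KO 24 h replicate 1 or 2 (-0.59 and -0.66, adjusted p = 0.11 and 0.0909). In WT cells they were SLAMF6, CD84 and SH2D1A from 6 to 12 h, all lost without WT 6 h replicate 1 (0.42, 0.45 and 0.66, adjusted p = 0.0897, 0.0599 and 0.0793), and LY9 and CD48 from 12 to 24 h, both lost without WT 12 h replicate 2 (0.45 and 0.65, adjusted p = 0.102 and 0.075). From 24 to 36 h in WT cells they were SLAMF6, CD84 and CD244, all lost without WT 24 h replicate 1 (0.30, -0.44 and -0.50, adjusted p = 0.244, 0.0589 and 0.104) or WT 36 h replicate 2. Steps that were not called had SEs of 0.126 to 0.536 log2 units.

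Over the 10 group means, SLAMF6 and CD48 followed each other most closely within the set (r = 0.96 on log2 CPM), and SLAMF1 and SH2D1A were the most opposed pair (r = -0.73). These are descriptions over 10 groups that share genotypes and times, and 10029 genes that reached 10 CPM in a group were searched for the genes most like each member. For SLAMF6 they were ZNF683, a transcription factor of resident memory lymphocytes (r = 0.991), RGS16, a regulator of G protein signalling (r = 0.990), and AGFG1 (r = 0.988). ZNF683 stood at 0.259, 2.94, 3.51, 43.4 and 81 CPM in KO cells at 0, 6, 12, 24 and 36 h, against 0.555, 1.51, 4, 17.5 and 24.8 CPM in WT cells. For CD48 they were APOBEC3F (r = 0.991), STAT6 (r = 0.990) and APOBEC3G (r = 0.989), of which the APOBEC3 proteins are cytidine deaminases that restrict retroviruses and may share reads between near-identical copies. For SLAMF7, after CD68, they were PLAU, the urokinase plasminogen activator (r = 0.972), and FAM83G (r = 0.971). PLAU stood at 1.32, 149, 51.2, 25.7 and 17.7 CPM in KO cells, against 1.3, 11.8, 4.53, 2 and 1.63 CPM in WT cells. For SLAMF1 they were NEDD9, IL23A and CRTAM (r = 0.982, 0.974 and 0.973), for LY9 EPAS1, ETV5 and CNIH4 (r = 0.984, 0.980 and 0.980), and for CD84 CMAHP, SERPINB8 and IKZF1 (r = 0.972, 0.955 and 0.947). For SH2D1A they were LRRC37A4P, ARHGDIB and CERKL (r = 0.981, 0.968 and 0.961). CD244 had no neighbour as close, with TBC1D10C, NAGK and DENND1B at r = 0.876, 0.870 and 0.870.

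Beyond the set, 25 other genes of SLAM signalling were listed: further family members and the adaptor EAT-2, the relatives CD2 and CD58, kinases, phosphatases, and adaptors and effectors of the receptor tails. Of these, 24 were tested and SLAMF9 was not. In KO against WT, 3 were called higher and 2 lower at 0 h, 1 and 6 at 6 h, 4 and 2 at 12 h, 3 and 2 at 24 h, and 7 and 5 at 36 h. That was 5, 7, 6, 5 and 12 of the 24 called either way, where 6.06%, 9.93%, 11.4%, 9.55% and 13.5% of all genes were. At 36 h CD2, an adhesion receptor of T cells, was higher in KO cells, at 213 CPM against 88.6 CPM in WT cells (log2 1.27 (SE 0.092, adjusted p = 7.55e-13)). PIK3R1, the regulatory subunit of PI3 kinase, was lower at 36 h, at 41.7 CPM in KO cells against 102 CPM in WT cells (log2 -1.29 (SE 0.126, adjusted p = 1.28e-09)). PRKCQ, protein kinase C theta, which SAP is known to engage, was higher at 36 h by 0.65 (SE 0.114, adjusted p = 8.24e-05), and PTPRC, the phosphatase CD45, was lower, with -0.49 (SE 0.115, adjusted p = 0.0025). At 6 h ARHGEF7, an exchange factor also called beta-PIX, was lower in KO cells (-0.73 (SE 0.0976, adjusted p = 1.13e-06)), as were CD2, PTPRC and PRKCQ (-0.51, -0.59 and -0.53, adjusted p = 0.000119, 0.000403 and 0.00123). CD2 and PRKCQ were thus called lower in KO cells at 6 h and higher at 36 h.

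At 0 h SLAMF8, a family member without a SAP-binding tail, was at 0.322 CPM in KO cells against 1.87 CPM in WT cells (log2 -2.98 (SE 0.582, adjusted p = 0.00115)). The KO libraries then held 5, 3 and 6 counts of it, against 62, 5 and 69 in the WT libraries. Later SLAMF8 stood higher in KO cells, at 6.46, 9.75, 5.78 and 6.98 CPM at 6, 12, 24 and 36 h against 2.88, 5.49, 2.91 and 2.71 CPM in WT cells. These differences were 1.17, 0.83, 0.99 and 1.33 log2 units (adjusted p = 0.043, 0.138, 0.116 and 0.0172), called at 6 and 36 h. The 6 h call was lost without any of 17 single libraries, for example KO 6 h replicate 2 (0.68, adjusted p = 0.337), and the 36 h call without WT 36 h replicate 2 or 3 or KO 36 h replicate 3 (1.20, 1.23 and 1.19, adjusted p = 0.0838, 0.0899 and 0.0865). The 24 h value was called without WT 24 h replicate 3 (1.58, adjusted p = 0.0139). The change of SLAMF8 from 0 h was larger in KO cells by 4.15, 3.81, 3.96 and 4.31 log2 units at 6, 12, 24 and 36 h (adjusted p = 0.000462, 0.00111, 0.000602 and 0.000106), against the same few counts at 0 h. PTPN6, which encodes SHP-1, was lower in KO cells at 0 h (-0.65 (SE 0.164, adjusted p = 0.0141)), and CBL, a ubiquitin ligase, and PLCG1, phospholipase C gamma 1, were higher (0.52 and 0.97, adjusted p = 0.0135 and 0.0175). The calls of PTPN6, CBL and PLCG1 at 0 h were each lost without KO 0 h replicate 1 (-0.66, 0.44 and 0.94, adjusted p = 0.0552, 0.118 and 0.0807), and each also without some other 0 h libraries. At 12 h ARHGEF7 was lower (-0.56 (SE 0.0976, adjusted p = 9.66e-05)), and CSK, INPP5D and PLCG1 were higher (0.61, 0.61 and 0.88, adjusted p = 0.000349, 0.0112 and 0.0208). CSK inhibits SRC family kinases and INPP5D encodes the lipid phosphatase SHIP-1. The INPP5D call was lost without WT 12 h replicate 2 (0.52, adjusted p = 0.0864), and that of PLCG1 without that library (0.80, adjusted p = 0.107), KO 12 h replicate 2 or 3 or WT 12 h replicate 1. At 24 h PRKCQ, CD2 and RASA1, a RAS GTPase activating protein, were higher in KO cells (0.51, 0.37 and 0.44, adjusted p = 0.00235, 0.00505 and 0.0102), and the kinase LCK was lower (-0.33 (SE 0.0884, adjusted p = 0.0121)). The PRKCQ and LCK calls at 24 h were lost without KO 24 h replicate 3 (0.39 and -0.28, adjusted p = 0.059 and 0.113), and that of LCK also without KO 24 h replicate 2 or WT 24 h replicate 2. In a fit of the 6 libraries of 24 h alone CD2, RASA1 and LCK were not called.

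Against 0 h, 6, 12, 11 and 9 of the 24 pathway genes were called higher in KO cells at 6, 12, 24 and 36 h, where 14.0%, 14.1%, 16.1% and 18.6% of all genes were. In KO cells 7, 2, 4 and 7 were called lower, where 13.1%, 13.8%, 16.6% and 18.0% of all genes were. In WT cells 10, 10, 10 and 12 were called higher, where 11.8%, 14.7%, 17.2% and 20.1% of all genes were, and 2, 3, 3 and 4 lower, where 10.6%, 15.6%, 17.0% and 19.0% were. Counts of genes called lower, such as 2 of 24 in KO cells at 12 h, were thus near or below the share of all genes at several times. The median log2 change of the list was -0.06, 0.24, 0.19 and 0.13 in KO cells and 0.17, 0.26, 0.27 and 0.36 in WT cells, with medians over all genes of 0.03, 0.05, 0.05 and 0.04 in KO cells and 0.03, 0.12, 0.03 and 0.01 in WT cells. At 36 h RASA1 was higher than at rest in KO cells (1.75) and in WT cells (1.58), as was PTPN11, which encodes the phosphatase SHP-2 (1.50 and 1.84). PTPN6 rose at 6 h by 1.63 log2 units in KO cells and 1.60 in WT cells. FYN, the kinase that SAP recruits, was at 18, 63, 48.5, 70.2 and 113 CPM in KO cells at 0, 6, 12, 24 and 36 h, against 17.4, 55.5, 41.2, 54.7 and 59.8 CPM in WT cells. At 6 h it had risen by 1.80 log2 units in KO cells (adjusted p = 4.58e-07), a time at which SH2D1A had fallen.

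Because the receptors are neighbours, the genes on either side of them were set beside them. The nearest 10 protein-coding genes of RefSeq on each side of the cluster were taken, of which 18 in all were tested, and a locus between CD48 and SLAMF7 was not analysed here. In KO against WT 2 of these 18 were called at 0 h, 2 at 6 h, 4 at 12 h, 1 at 24 h and 1 at 36 h, where 6.06%, 9.93%, 11.4%, 9.55% and 13.5% of all genes were called. The single genes at 24 and 36 h are a smaller share than that of all genes. VANGL2, a planar cell polarity protein that lies next to SLAMF6, was called lower in KO cells at 0, 6 and 12 h, with log2 differences of -0.93 (SE 0.281, adjusted p = 0.0377), -1.05 (SE 0.258, adjusted p = 0.0056) and -1.08 (SE 0.248, adjusted p = 0.00285). Its mean level at 0 h was 2.74 CPM in KO cells and 5.5 CPM in WT cells. The 0 h call of VANGL2 was lost without WT 0 h replicate 1, 2 or 3 or KO 0 h replicate 2 or 3 (-1.04 to -0.61, adjusted p = 0.0599, 0.114, 0.0821, 0.101 and 0.296), and the 6 h call without WT 6 h replicate 3 or KO 6 h replicate 1 (-0.80 and -0.86, adjusted p = 0.0813 and 0.0622). At 0 h the call was also lost in a fit of the 6 libraries of 0 h (-0.95, adjusted p = 0.0717) and without the 3 libraries under 10 M counts (-0.77, adjusted p = 0.244). Counts this small moved by over 1.5 times without single libraries at all times but 12 h. SLAMF6 itself, beside it, was not called at those times. Against 0 h, 8, 8, 7 and 7 of the 18 were called higher in KO cells at 6, 12, 24 and 36 h and 1, 0, 0 and 2 lower. In WT cells 5, 6, 6 and 8 were called higher and 0, 1, 0 and 1 lower. Over all genes tested in KO cells, 14.0%, 14.1%, 16.1% and 18.6% were called higher and 13.1%, 13.8%, 16.6% and 18.0% lower. Over all genes in WT cells, 11.8%, 14.7%, 17.2% and 20.1% were called higher and 10.6%, 15.6%, 17.0% and 19.0% lower. COPA, NCSTN, USF1 and NIT1 were called higher than at rest at all 4 later times in both genotypes, and PEA15 in KO cells. At 36 h their log2 changes in KO cells were 0.72, 0.93, 0.32, 0.82 and 1.04. The 36 h call of USF1 in KO cells was lost without KO 0 h replicate 2 or 3 or any 1 of the KO 36 h libraries (0.23 to 0.36, adjusted p = 0.199, 0.0786, 0.065, 0.125 and 0.0535). SLAMF6, SLAMF7, SLAMF1, LY9 and CD48 had larger changes in KO cells at 36 h, 2.87, 4.24, 4.72, 2.68 and 3.50. CD84 and CD244, in the same cluster, had -0.16 and -0.26. In WT cells the change of SLAMF7 at 36 h was 0.82 and not called (adjusted p = 0.135).

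**Figure D4:**
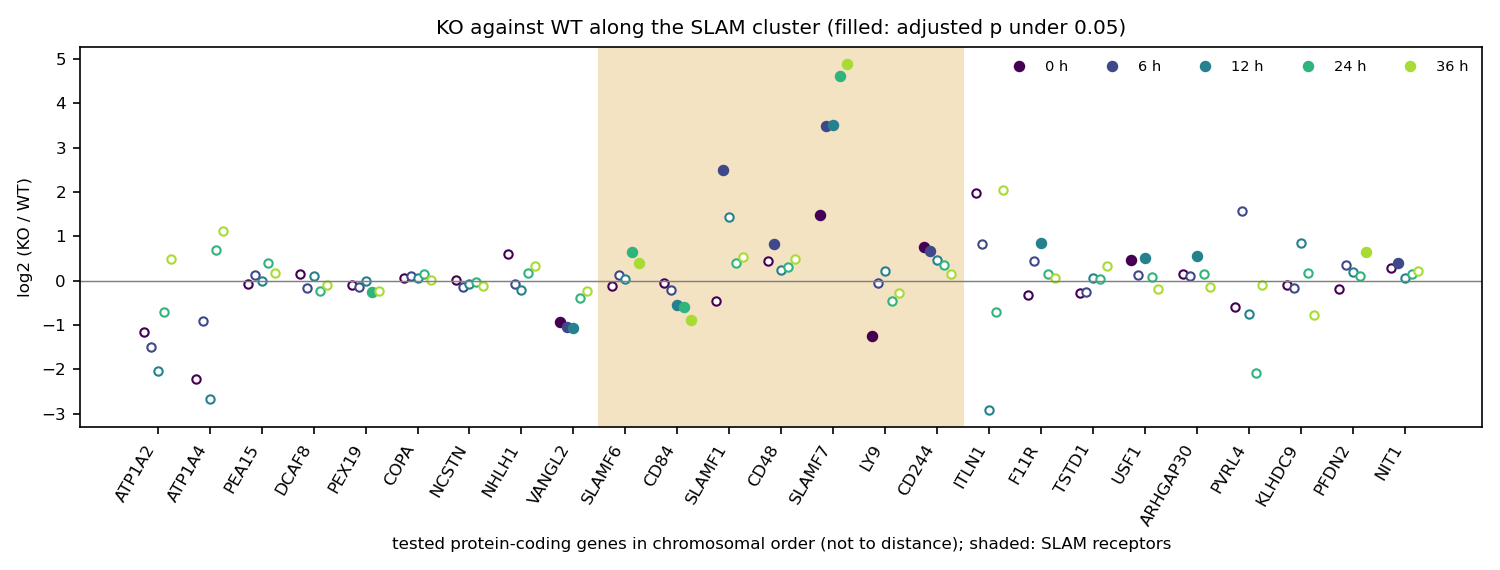
Log2 difference of KO over WT for tested protein-coding genes in their order along chromosome 1, with distances not to scale, coloured by hours of activation and filled at an adjusted p under 0.05. The shaded receptors hold the largest called differences, from SLAMF7, and outside them VANGL2 is filled at 3 times.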

How the data were processed

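Estimated counts for 54300 gene symbols, as the authors deposited them for each Jurkat E6-1 library, were the starting point. Values that were not whole numbers occurred in 195 symbols and made up 0.177% of all values. All were rounded before testing. Per the submitters' processing notes, cutadapt, STAR and DESeq2 were used with the builds hg19 and GRCh37, without versions. The counting program and its use of strand are not stated in the sources used. Times are taken as hours. A table of the whole series was not used.

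The quasi-likelihood F test of edgeR 4.0.16 (R 4.3.3) was run on the 10 groups of genotype and time in a single fit of 30 libraries with TMM scaling. The function filterByExpr, set to a minimum count of 10, kept 21554 symbols. Adjustment followed Benjamini and Hochberg over every symbol kept, for each comparison separately, and calls were made under 0.05. SE is the absolute log2 fold change divided by the square root of F. The procedure was tested on simulated data. Exon lengths came from GENCODE 29, and likeness between genes was Pearson's r over group means of log2 CPM.

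Depth ran from 5.64 to 28.2 M counts, and low genes carry wider errors. Alternatives were DESeq2 1.42.0, its size factors, total counts, no filter on low counts, a replicate block, fits of 6 libraries, leaving out the 3 shallowest libraries, and leaving out each library. Named genes were all 8 members, up to 4 of the called pathway genes with the smallest p, neighbouring genes called in KO against WT at 3 or more times or at all 4 later times of a genotype, and the 3 genes most like each member. The members and lists were chosen with earlier results of these data known. Protein sequences were not used. Some marker results are not reported here.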

Additional observations from a re-analysis of the deposited data

Results flagged for a closer look

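These genes changed from 0 h by a different amount in KO than in WT cells, by the test of that difference in the fit of all libraries. SLAMF7 rose more in KO cells by 2.02, 2.06, 3.14 and 3.41 log2 units at 6, 12, 24 and 36 h. LY9 rose more in KO cells by 1.20, 1.47, 0.80 and 0.98 log2 units at these times, from a lower level at 0 h. SLAMF6 rose more in KO cells at 24 h, by 0.77. At 36 h the change was more negative in KO cells by -0.83 for CD84 and by -1.07 for SH2D1A, and CD84 in KO cells was then near its level at 0 h. Without the 3 libraries under 10 M counts, the calls of SLAMF7 at 6 and 12 h, LY9 at 24 and 36 h, SLAMF6 at 24 h and SH2D1A at 36 h were lost. In the titles, KO libraries of 0 to 24 h carry B and WT libraries A, and those of 36 h carry C. The differences of changes at 6 to 24 h thus compare times within a letter in each genotype. Those at 36 h set letter C against B in KO cells and against A in WT cells. The part of the letter in these values was not tested.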

How the results depend on the processing

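Counts and log2 changes of the 8 genes, and those of the named pathway and neighbouring genes, were recomputed under 6 alternatives, of which 1 drops the 3 shallowest libraries, in fits of 6 libraries alone where the comparison allows one, and without each library in turn. Levels, medians and likeness have no alternative. Of the counts of the 8 genes called, 145 were within 1.5 times of those reported in the alternatives that leave out no single library, and 12 were not. In fits of 6 libraries alone, KO against WT called 3, 4, 2 and 7 of the 8 genes at 6, 12, 24 and 36 h, where 5, 2, 4 and 4 were called in the fit of all libraries. Over all genes, 9.93%, 11.4%, 9.55% and 13.5% were called at these times in the fit of all libraries. The fit of 6 called 986 of 15999 genes tested at 24 h. At 6, 12 and 36 h it called a number of genes within 1.5 times of that in the fit of all libraries. Without the filter on low counts 4 of the 8 genes were called in KO against WT at 12 h. Without the 3 libraries under 10 M counts, a change from 0 h that differed between KO and WT cells was called in 1, 1, 1 and 2 genes at 6, 12, 24 and 36 h, and the 24 to 36 h step in WT cells in 1. WT 24 h against 0 h in SH2D1A, reported as -0.01, was 0.04 with total counts, 0.02 without the filter, 0.06 without the 3 libraries and 0.02 in the fit of 6. KO against WT in SLAMF6 at 12 h, reported as 0.03, was -0.04 with DESeq2 size factors, -0.05 with total counts, -0.04 with DESeq2 and -0.01 in the fit of 6. For CD48, the change to 36 h in KO cells less that in WT cells was -0.01 with total counts and -0.13 without the 3 libraries. CD84 from 12 to 24 h in WT cells was 0.04 without the filter. No value that reversed had been called. The cause of these shifts was not tested.

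Title numbers are shared by KO and WT libraries at 0 to 24 h. Of 12 such pairs, 3 deviated together with a correlation over 0.1 (range -0.023 to 0.374). These were 0 h replicates 2 and 3 (0.374 and 0.271) and 24 h replicate 3 (0.137). The labels do not say what the numbers mark, and the main fit did not treat libraries of a number as paired. Any deviation that a pair shares counts as spread in that fit. A block on the number called the differences of changes at 24 h for CD84 and SH2D1A (-0.56 and -0.93, adjusted p = 0.00908 and 0.00227). With the replicate block, 4 of the 8 genes were called in KO against WT at 12 h and 5 in the difference of changes at 24 h, the joint test of SH2D1A was called (adjusted p = 0.00104), and 8, 11 and 10 pathway genes were called in KO against WT at 0, 6 and 12 h. Over all genes, the block called 1286 of 21554 in the difference of changes at 24 h, against 794 without it. In KO against WT at 0, 6 and 12 h its number stayed within 1.5 times of the 1306, 2141 and 2451 called without it. The pathway alternatives were chosen after seeing the data. There, 1 gene was called at 0 h without the 3 libraries and 1 at 24 h in the fit of 6.

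Leaving out each library in turn gave 3 to 5 genes called in KO against WT at 6 h, with 3 without KO 6 h replicate 2, and 2 to 4 at 12 h, with 4 without KO 6 h replicate 2 or KO 24 h replicate 3. For the difference of changes it gave 1 to 3 at 6 h, 1 to 2 at 12 h and 1 to 4 at 24 h, lowest without 0 h replicate 1 of either genotype at 6 and 12 h, without KO 0 h replicate 3 at 12 h, and without KO 24 h replicate 3 or WT 24 h replicate 1 at 24 h. Steps gave 2 to 5 from 6 to 12 h in KO cells, and 2 to 6, 2 to 5 and 1 to 4 in WT cells. Pathway genes called in KO against WT ran from 2 to 5 at 0 h, 2 to 7 at 12 h and 3 to 6 at 24 h. Values that changed sign ran from -0.08 to 0.09 for SH2D1A at 24 h against 0 h in WT cells, from -0.16 to 0.03 for CD84 in KO against WT at 0 h, from -0.34 to 0.10 for LY9 at 6 h, and from -0.05 to 0.12 for SLAMF6 at 12 h. Differences of changes ran from -0.32 to 0.12 for CD244 at 6 h, from -0.29 to 0.14 for CD48 at 24 h and from -0.09 to 0.21 for CD48 at 36 h. Steps ran from -0.09 to 0.15 for CD84 from 12 to 24 h in WT cells, from -0.94 to 0.16 for SLAMF7 and -0.06 to 0.33 for SLAMF1 from 24 to 36 h in WT cells, and in KO cells from 12 to 24 h from -0.22 to 0.10 for CD84, -0.18 to 1.31 for SLAMF1, -0.24 to 0.02 for LY9 and -0.12 to 0.40 for SH2D1A. LY9 from 24 to 36 h in KO cells ran from -0.13 to 0.00. Over all genes, the joint difference of changes was called in 2105 genes, in 3180 with DESeq2, 3179 with the block and 1386 without the 3 libraries. For the difference of changes at 6, 12 and 24 h, 666, 440 and 794 genes were called, with 1061, 710 and 1250 by DESeq2, 1122, 691 and 1286 with the block, and 381, 278 and 420 without the 3 libraries. Without them 910 were called at 36 h, against 2012, and 631 in KO against WT at 0 h, against 1306, and 909 from 24 to 36 h in WT cells, against 1522. KO against WT at 24 h called 2059 genes, and 986 in the fit of 6. Named neighbours kept their calls in 270 comparisons under these alternatives and lost 3; these were also chosen after seeing the data. At 0 h the libraries held 2 to 30 counts of SLAMF1 and 7 to 58 of SLAMF7.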
